A study of Homo sapiens with 2 samples.

Results

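The nuclear genes of oxidative phosphorylation were taken as the protein-coding genes whose symbol starts with NDUF, UQCR, ATP5 or COX followed by a number, together with SDHA, SDHB, SDHC and SDHD. The rule found 107 genes among 20136 nuclear protein-coding genes of the GENCODE annotation on hg19 (GRCh37). They comprised 77 widely used subunits of complexes I to V, 17 assembly factors and 10 isoforms, relatives or intronless copies of subunits. The rest were 2 readthrough genes that join a subunit gene to its neighbour, and 1 inhibitor of the ATP synthase. Among the 10 was COX7A2L, a relative of the COX7A subunits, which was not counted in the 9 isoforms and copies described below. LSD1 (KDM1A), a demethylase of histone H3 lysine 4 that works within corepressor complexes, was mapped by chromatin immunoprecipitation and sequencing (ChIP-seq) in PC-3M-luc cells, a luciferase-marked prostate carcinoma line derived from PC-3. There was 1 LSD1 library and 1 input library. Both came from the same line, with the genotype given as control and no treatment named. The authors' list of 20110 peaks was taken as LSD1 called against the input. With 1 library per arm, no value has a replicate check and no test across replicates was possible. The files give no read numbers, so the depth behind a peak is unknown. Intervals are exact 95% binomial (Clopper-Pearson) intervals and cover counting error only. The list measures no expression, so the label of the cells was not checked against marker genes.

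The respiratory chain passes electrons from NADH (complex I) and succinate (complex II) through complex III to oxygen at complex IV. Complexes I, III and IV pump protons across the inner mitochondrial membrane, and complex V uses the resulting gradient to make ATP. All complexes but complex II combine subunits encoded in the mitochondrial genome with a larger number encoded in the nucleus, and the nuclear genes of the widely used subunits are expressed in nearly every cell. Their promoters are classically described as targets of the nuclear respiratory factors NRF1 and GABP, the latter a member of the ETS family. Subunits encoded by the mitochondrial genome were not analysed here.

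LSD1 peaks lay at nearly all of these promoters. A peak overlapped the window of 1 kb either side of the canonical transcription start site (TSS) at 100 of 107 genes (93.5%, interval 87.0 to 97.3), where 55.1% of all protein-coding genes had one. The 7 genes without a peak were COX4I2, COX6A2, COX7A1, COX7B2, COX8C, UQCRHL and ATP5MGL, each an isoform or an intronless copy of another member. All 77 widely used subunits and all 17 assembly factors had a promoter peak. In 99 of the 107 genes the TSS base itself lay under a peak, against 53.6% of all genes. The 100 genes were reached by 98 distinct peaks, because both readthrough genes start beside the subunit gene they include (NDUFC2-KCTD14 with NDUFC2, and ATP5MF-PTCD1 with ATP5MF) and share its peak. Absence from the list means only that no signal there met the threshold of the caller, not that LSD1 was missing.

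**Figure D1:**
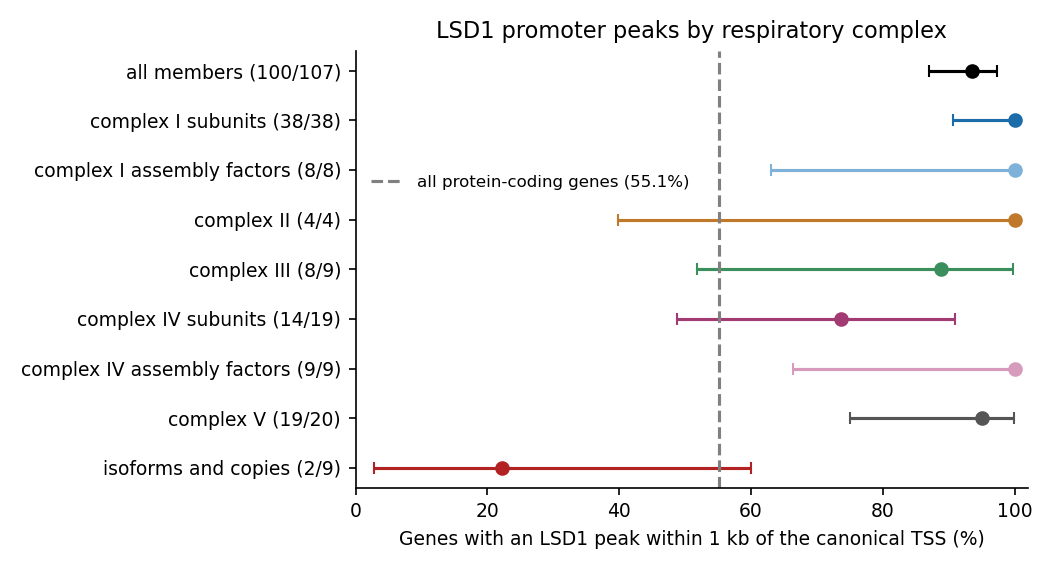
Share of genes with an LSD1 peak within 1 kb of the canonical TSS (horizontal axis, percent), with exact 95% binomial intervals, for all 107 members, for each class and for the 9 isoforms and copies. The dashed line is the share over all protein-coding genes, 55.1%. The points of all classes lie to its right except that of the isoforms and copies, at 22.2%. The intervals of complex II, complex III, the complex IV subunits and the isoforms and copies reach across it.

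The promoters below are those under the highest-scoring peak among the members that encode subunits of each complex. They show the DNA at the gene start only, a small part of that under each peak. The peaks at NDUFB10 and SDHD had their midpoints 3564 bp downstream and 1909 bp upstream of the start. Assembly factors were left out, as was CYC1 of complex III, which falls outside the symbol rule. NDUFB10 tied in score with NDUFA7 and was taken as the one with the wider peak. Each line runs 5′ to 3′ from 111 bases before the TSS through the 30 bases that start with it, in GRCh37 coordinates. Capitals mark matches, on either strand, to the NRF1 core GCATGCGC, the ETS element CCGGAAG, the YY1 element AAGATGGCG and the SP element GGGGCGGG.
NDUFB10 (chr16:2009428-2009568, plus strand): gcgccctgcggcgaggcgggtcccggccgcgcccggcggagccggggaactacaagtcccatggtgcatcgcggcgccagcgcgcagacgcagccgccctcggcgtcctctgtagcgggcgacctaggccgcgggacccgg
SDHD (chr11:111957486-111957626, plus strand): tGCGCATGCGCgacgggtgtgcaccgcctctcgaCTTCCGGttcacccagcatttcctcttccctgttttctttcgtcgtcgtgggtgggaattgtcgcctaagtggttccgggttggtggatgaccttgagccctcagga
UQCRH (chr1:46769259-46769399, plus strand): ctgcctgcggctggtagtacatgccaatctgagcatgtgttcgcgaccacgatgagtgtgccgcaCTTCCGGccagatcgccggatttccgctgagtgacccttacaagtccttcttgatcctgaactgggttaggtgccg
COX4I1 (chr16:85833190-85833330, plus strand): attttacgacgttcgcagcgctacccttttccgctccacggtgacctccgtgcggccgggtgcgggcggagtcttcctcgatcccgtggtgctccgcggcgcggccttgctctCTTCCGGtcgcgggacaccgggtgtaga
ATP5F1B (chr12:57039739-57039879, minus strand): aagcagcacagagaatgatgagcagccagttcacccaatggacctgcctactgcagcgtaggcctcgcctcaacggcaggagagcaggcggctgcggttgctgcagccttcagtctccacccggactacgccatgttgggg

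SDHD carried the NRF1 core on both strands, as overlapping matches, and an ETS element. UQCRH and COX4I1 each carried 1 ETS element, and NDUFB10 and ATP5F1B carried none of the letters searched in this stretch. CpG density varied widely between them, from 7 CpG dinucleotides in the 141 bases at ATP5F1B to 24 at NDUFB10.

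Complex I, the NADH dehydrogenase and the largest complex of the chain, had a promoter peak at all 38 subunit genes. The authors' score of a peak was used here only to rank and describe peaks. It was read as the peak caller's −10 × log10 p, which no label states, and 3100 is a value shared by 206 peaks of the list. The highest scores of complex I were 3100 at NDUFB10 and at NDUFA7, both supernumerary subunits. Each of these peaks also covered the TSS of a ribosomal protein gene. The NDUFB10 peak (chr16:2008891-2017315, 8425 bp) had its midpoint 3564 bp downstream of the NDUFB10 start and reached over RPS2. The NDUFA7 peak (chr19:8384567-8390308, 5742 bp) had its midpoint 1178 bp upstream of the NDUFA7 start and reached over RPS28. Next came NDUFS6, a supernumerary subunit of the electron input arm, with a score of 1972.82 (chr5:1798852-1802539). The lowest score was 143.68, at NDUFA8, a supernumerary subunit of the membrane arm (chr9:124920257-124922575).

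The catalytic core of complex I did not stand at the top of its class. The genes for its 3 flavin and iron-sulfur subunits of electron input scored 590.21 (NDUFS1), 286.3 (NDUFV2) and 256.57 (NDUFV1). NDUFS8, a subunit of the quinone-binding module, scored 804.67. The 30 genes for its supernumerary subunits had a median score of 603.

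The 8 assembly factors of complex I, NDUFAF1 to NDUFAF8, all had a promoter peak. NDUFAF3 scored 3100, under a peak of 10543 bp that also covered the start of IMPDH2, a gene of guanine nucleotide synthesis (chr3:49057042-49067584). NDUFAF1, which helps to build the membrane arm, scored 996.34 and NDUFAF4 scored 673.67, both from narrow peaks of 1415 and 1574 bp. The lowest was NDUFAF6 at 245.94. The NDUFAF8 peak was wide (8713 bp) at a moderate score of 449.56, so width and score did not rank these genes alike.

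Complex II, succinate dehydrogenase, is built from nuclear genes alone and also belongs to the tricarboxylic acid cycle. All 4 of its genes had a promoter peak. SDHD, a membrane anchor, scored 1210.84 (chr11:111953186-111958191, 5006 bp), and its peak also covered the start of TIMM8B, a mitochondrial import chaperone whose gene begins 117 bp away on the other strand. SDHA, the flavoprotein, scored 926.43 and SDHC, the other anchor, 835.89. SDHB, the iron-sulfur subunit, was far lower at 157.43 (chr1:17379512-17381058, 1547 bp). Widths at SDHA, SDHB and SDHC were alike, from 1506 to 1928 bp, although the 2 catalytic subunits lay far apart in score.

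Complex III, which passes electrons from ubiquinol to cytochrome c, had a promoter peak at 8 of its 9 members (88.9%, interval 51.8 to 99.7). That interval includes the share over all protein-coding genes, 55.1%. CYC1, the cytochrome c1 gene of complex III, falls outside the symbol rule and scored higher than any of these members, at 3100. Among the members UQCRH, the hinge protein, led with a score of 1167.17 (chr1:46767242-46770218). UQCR11 followed with 700.48 and UQCRC1, a core protein, with 650.69. The lowest member was UQCRFS1, the Rieske iron-sulfur protein that carries out the electron transfer, at 301.05. The member without a peak was UQCRHL, the intronless copy of UQCRH, 6236 bp from the nearest peak.

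Complex IV, cytochrome c oxidase, had a promoter peak at 14 of 19 subunit genes (73.7%, interval 48.8 to 90.9). The share over all protein-coding genes, 55.1%, lay within that interval. All 5 subunit genes without a peak were tissue-restricted isoforms. COX4I1, the widely expressed form of the largest nuclear subunit, led with 1539.23 (chr16:85832023-85834802), ahead of COX7A2 with 632.48 and NDUFA4, a subunit first assigned to complex I, with 632.13. The other widely used subunits scored from 262.24 (COX6C) to 554.13 (COX8A). COX7A2L, a supercomplex factor related to the COX7A subunits, scored 187.33. The lowest score of any member, 51.15, was at the isoform COX6B2, close to the lowest score of the whole list, 50.

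The 9 assembly factors of complex IV all had a promoter peak, with a median score of 644. The 11 widely used subunits had a median of 500. All 14 subunit genes with a peak, with COX7A2L and the isoforms NDUFA4L2 and COX6B2 included, had a median of 362. COX20, a chaperone of a mitochondrially encoded subunit, scored 3100 under a peak of 9008 bp (chr1:244996931-245005938). COX18, a membrane insertase, scored 1323.59 and COX15, of heme A synthesis, 847. COX10, the other enzyme of heme A synthesis, scored 577.5, and the copper proteins COX17, COX11 and COX19 scored 715.12, 643.54 and 459.17. The lowest was COX16 at 341.51.

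Complex V, the ATP synthase, had a promoter peak at 19 of 20 genes, and the exception was ATP5MGL, an intronless copy of ATP5MG. ATP5F1B, the catalytic beta subunit, led with 1520.55 (chr12:57038154-57040734). ATP5ME, a membrane subunit, scored 1486.19 under a peak of 11533 bp, with its midpoint 4499 bp upstream of the ATP5ME start. That peak also covered the TSS of MYL5. ATP5PF, of the peripheral stalk, scored 1470.81. The F1 head was spread over the whole range, since ATP5F1A, the alpha subunit that alternates with beta, scored 242.77 and ATP5F1D, the delta subunit, had the lowest score of the class, 122.46. ATP5F1D was also the 1 member with 2 promoter peaks, almost adjoining, of which the lower-scoring (75.58, chr19:1241404-1242061) covered the TSS. The genes ATP5MC1, ATP5MC2 and ATP5MC3, which encode the same mature subunit of the rotating c-ring behind different import sequences, scored 1411.6, 670.67 and 220.11. ATP5IF1, the inhibitor that blocks ATP hydrolysis, scored 601.16.

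**Figure D2:**
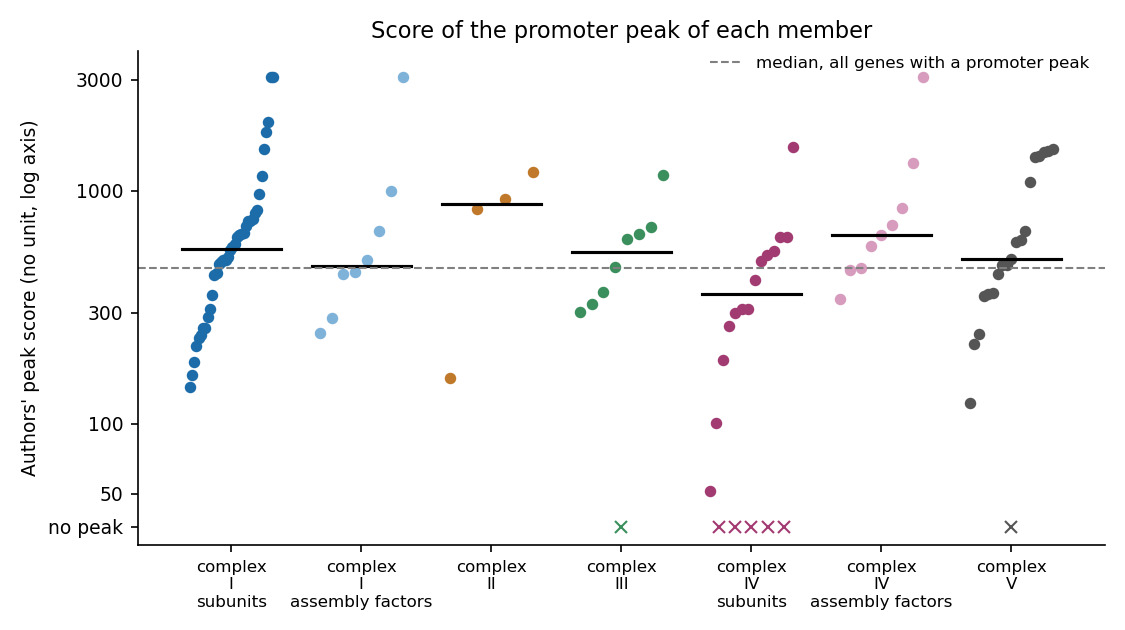
Authors' peak score on a log axis for the highest-scoring promoter peak of each member, by class. Each point is 1 gene, black bars are class medians, crosses are genes without a promoter peak, and the dashed line is the median over all genes with a promoter peak, 465. Scores run from 51.15 to 3100, and every class with 8 or more genes has points on both sides of the dashed line.

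Among members the median score was 527, against 465 over all genes with a promoter peak. Of the 100 members with a peak, 92 reached the median score of the whole list, 206, where 78.2% of all genes with a promoter peak did. By score, 49 of the 100 stood above the 75th percentile of the list, where 43.5% of all genes with a promoter peak did, and 1, COX6B2, stood below the 25th, where 5.58% did. Their peaks were not wider than usual, at 1807 bp in the median where all genes with a promoter peak had 1955 bp. The midpoint lay a median of 15 bp downstream of the TSS (quartiles −142 to 214 bp). Extents on both sides were nearly balanced, with medians of 822 bp upstream and 916 bp downstream.

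**Figure D3:**
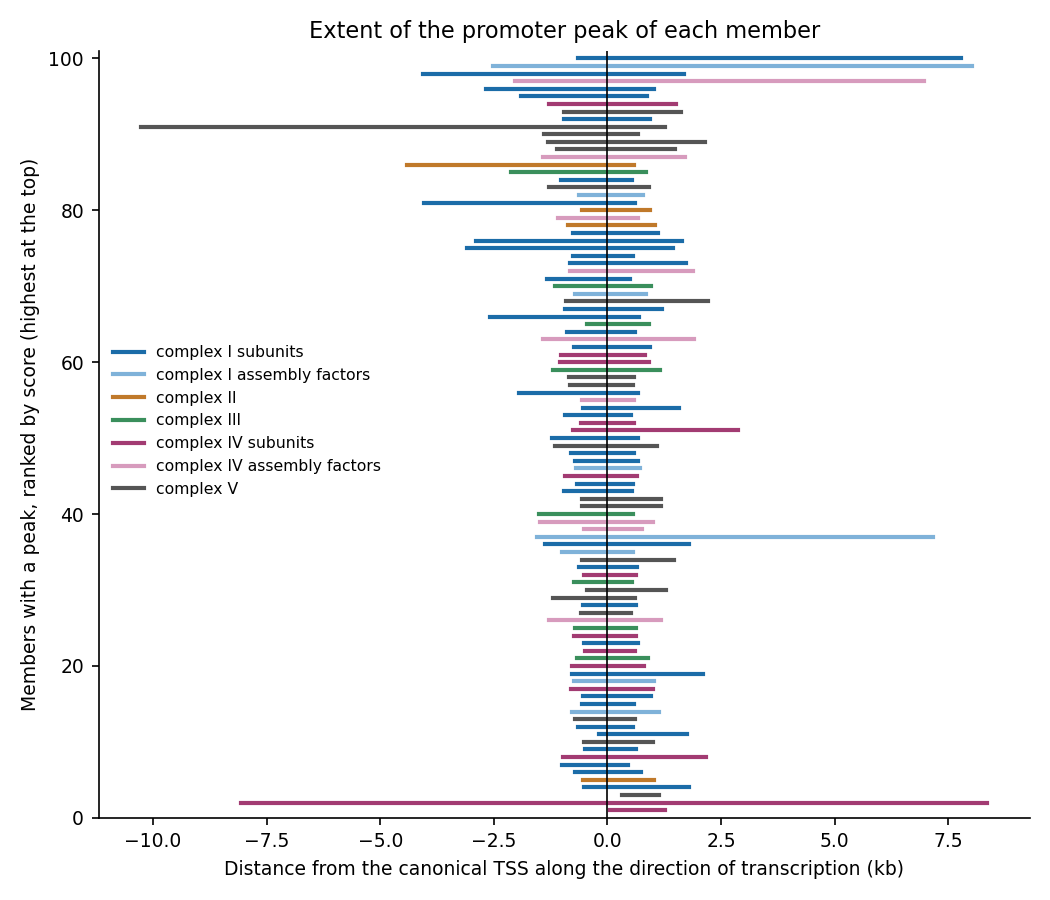
Extent of the highest-scoring promoter peak of each of the 100 members with a peak, as distance from the canonical TSS in kb, with positive values in the direction of transcription, ranked by score and coloured by class. Most peaks straddle the start symmetrically. The 8 peaks wider than 5000 bp extend mainly to one side, except that of NDUFA4L2, the second from the bottom, which reaches about equally far both ways.

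The widely expressed subunits and their isoforms or copies formed 9 pairs, and the 2 sides differed in every pair. COX7A2L, which is widely expressed, was left out of the pairs. All 9 widely expressed genes had a promoter peak and 2 of 9 isoforms or copies did (22.2%, interval 2.81 to 60.0). That interval includes the share over all protein-coding genes, 55.1%. By the definition given below, 7 of the 9 isoforms or copies were CpG-poor, and 27.2% of all CpG-poor promoters had a peak. COX4I2, the form of lung and smooth muscle, had its nearest peak 23263 bp from the TSS. COX6A2 and COX7A1, forms of heart and skeletal muscle, had theirs 14255 and 10600 bp away, while COX6A1 and COX7A2 scored 300.26 and 632.48. COX7B2 and COX8C, described in testis, lay 553753 and 12941 bp from a peak, while COX7B and COX8A scored 310.02 and 554.13. ATP5MGL lay 3795 bp from one, and ATP5MG scored 360.9. No member without a promoter peak had a peak nearer than that.

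The 2 isoforms with a peak held the lowest scores of all members. At COX6B2, a testis isoform, the peak began 56 bp downstream of the TSS and did not cover it (chr19:55864826-55866031), and COX6B1 scored 311.09. NDUFA4L2, a hypoxia-induced relative of NDUFA4, lay in the widest peak of any member, 16437 bp (chr12:57622523-57638959), with a score of 100.83. That peak also covered the start of SHMT2, the mitochondrial serine hydroxymethyltransferase. NDUFA4 itself scored 632.13 from a peak of 1959 bp. Part of the sequence near some of these genes occurs elsewhere in the genome, and the part of this in the absence of a peak was not tested. The share of 32-base words within 1 kb of the TSS that occur once in the reference was 66.3% at UQCRHL, 66.4% at ATP5MGL, 79.8% at COX7B2 and 82.4% at COX4I2. It was between 94.9% and 97.9% at the other 3 genes without a peak, and as low as 69.0% at COX8A, which had one.

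**Figure D4:**
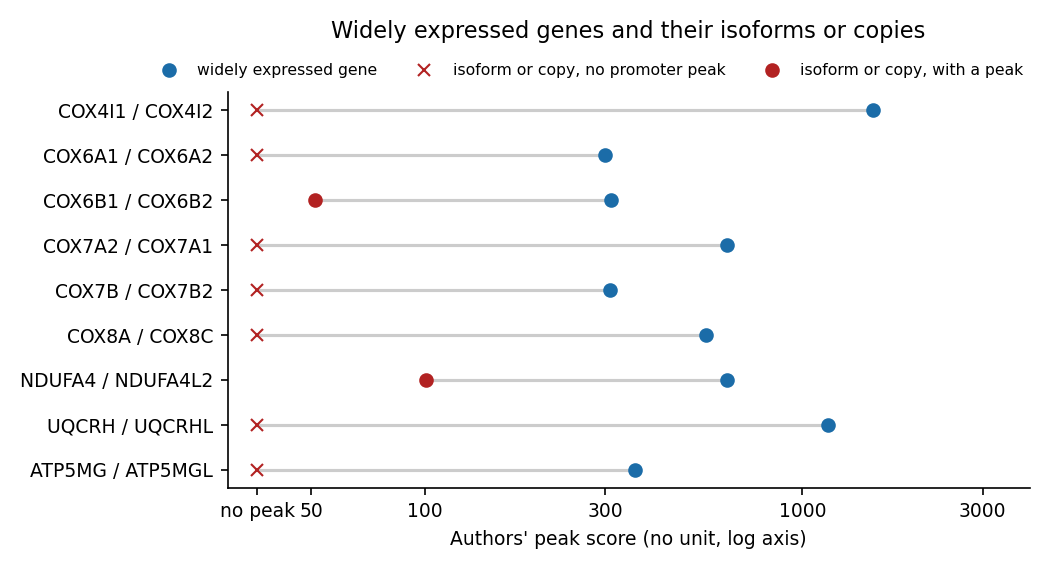
Authors' peak score on a log axis for each of 9 pairs of a widely expressed gene (blue) and its isoform or copy (red). Crosses mark isoforms or copies without a promoter peak. The blue point lies to the right in each pair.

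CpG content was compared within the pairs as well. Over 1000 bp around the TSS, the CpG observed-to-expected ratio, the number of CpG over that expected from the C and G content, was lower at the isoform or copy in 8 of 9 pairs. It was 0.886 at COX4I1 and 0.43 at COX4I2, with GC contents of 72.7% and 61.8%. The exception was the COX6B pair, with 0.601 at COX6B1 and 0.684 at COX6B2. Promoters counted as CpG-rich here had a GC content over 55% and a ratio over 0.65. By that definition 5 of 9 widely expressed genes were CpG-rich and 7 of 9 isoforms or copies were CpG-poor, and both sides of the COX7A, COX7B and UQCRH pairs were CpG-poor. Over the whole set 72 of 107 members were CpG-rich (67.3%), against 56.0% of all genes.

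The share with a peak was also above that of all genes when promoters of like CpG content were set side by side. A peak was present at 71 of 72 CpG-rich members, where 76.9% of all CpG-rich promoters had one. The exception was COX6A2, whose ratio was 0.689. Among the 35 CpG-poor members 29 had a peak, where 27.2% of all CpG-poor promoters did. Of these 35, 29 had a ratio of at least 0.6, so the ratio was also divided into 4 ranges, chosen after the values were seen. Between 0.6 and 0.8 there were 65 of 67 members with a peak against 71.3% of all genes, and from 0.8 upwards 34 of 34 against 79.8%. Below 0.6 the members were few and their isoforms and copies made up the whole, with 0 of 4 between 0.4 and 0.6 (34.1% of all genes) and 1 of 2 below 0.4 (8.57%). Of the isoforms and copies, COX6A2, COX6B2 and COX7B2 lay above 0.6.

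**Figure D5:**
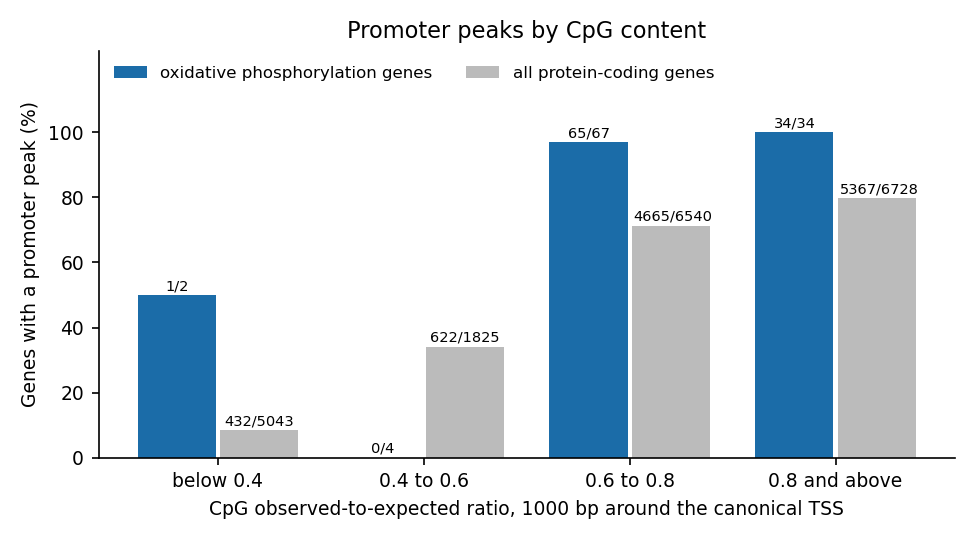
Percentage of genes with an LSD1 promoter peak in 4 ranges of the CpG observed-to-expected ratio, for the 107 members (blue) and all protein-coding genes (grey), with counts above the bars. In both upper ranges, which hold 101 members, the blue bar is the taller, at 65 of 67 and 34 of 34 genes. The lower ranges hold 2 and 4 members.

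Many members share their promoter with another gene. A protein-coding gene began on the opposite strand within 1000 bp upstream at 31 of 107 members (29.0%), against 9.36% of all genes. Of all genes with such a head-to-head neighbour, 94.0% had a peak. All 31 members so arranged had a peak, and in all 31 it covered the TSS of the neighbour too, so these peaks cannot be assigned to one gene of the pair. ATP5PF began 68 bp from GABPA, which encodes the DNA-binding subunit of GABP, and both starts lay under the peak with a score of 1470.81. NDUFB5 shared its peak with MRPL47, a gene of the mitochondrial ribosome 156 bp away, and NDUFS1 with EEF1B2, a translation elongation factor 451 bp away. COX4I1 shared its peak with EMC8, and UQCRH with LRRC41.

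The members without such a neighbour also had peaks often. Of these 76 genes 69 had a peak, where 51.0% of all genes without a head-to-head neighbour did. Counting any other protein-coding TSS under the peak, readthrough and unnamed genes included, 45 of the 100 members with a peak lay under a peak that covered one, against 24.4% of all genes with a promoter peak. Genes that share a peak are each counted here. Those 45 genes had a median score of 590 and a median width of 2078 bp. The other 55 had medians of 497 and 1582 bp.

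Elements for regulators of mitochondrial genes were counted within 500 bp either side of each TSS, on both strands. A match describes the sequence and does not show that a factor was bound. The NRF1 core GCATGCGC occurred at 22 of 107 members (20.6%, interval 13.4 to 29.5) and at 6.24% of all protein-coding promoters. The YY1 element AAGATGGCG occurred at 18 members (16.8%, interval 10.3 to 25.3) against 4.36%, and the ETS element CCGGAAG at 39 (36.4%, interval 27.4 to 46.3) against 22.3%. The SP element GGGGCGGG went the other way, at 40 members (37.4%, interval 28.2 to 47.3) against 47.5%. Among CpG-rich promoters alone the order was the same, with 23.6% of members against 8.36% of all genes for NRF1, 18.1% against 5.64% for YY1, 40.3% against 28.9% for ETS and 50% against 68.1% for SP. SDHB carried the first 3 of these elements with a score of only 157.43, NDUFB10 carried none of the 4 with a score of 3100, and ATP5PF carried all 4 with a score of 1470.81. These genes were chosen after their values were seen. The 71 members with a peak and at least 1 element had a median score of 572, and the 29 with a peak and no element had 497.

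Genes that work with these complexes but fall outside the symbol rule also had peaks at nearly every promoter. A peak was present at 53 of 54 genes (98.1%), where 55.1% of all protein-coding genes had one. Of the 54 promoters 47 were CpG-rich, and 76.9% of all CpG-rich promoters had a peak. The 53 genes included 35 of 35 assembly factors, with scores from 153.41 (SDHAF3) to 3100 (SCO2), a copper chaperone of complex IV. SURF1, an assembly factor of complex IV, scored 2655.56. All 6 electron carriers and their enzymes had a peak, among them CYC1, the cytochrome c1 of complex III, with 3100, and CYCS, cytochrome c, with 1150.2. The peaks at SCO2, SURF1 and CYC1 were wide, at 9431, 12682 and 6852 bp. Each covered the TSS but had its midpoint more than 1 kb from it. Of 13 nuclear regulators 12 had one, led by GABPB1 (2017.4) and YY1 (1506.55), with NRF1 at 949.04 and TFAM, the activator of mitochondrial transcription, at 564.87. The exception was PPARGC1A, the coactivator PGC-1 alpha, whose canonical TSS lay 432361 bp from the nearest peak, with a CpG ratio of 0.23. Its relatives PPARGC1B and PPRC1 scored 1000.08 and 705.56.

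Other large sets of mostly constitutively expressed genes, taken by symbol, had promoter peaks at similar shares, above the 55.1% of all protein-coding genes. Any tissue-restricted genes within these sets were not set apart. Mitochondrial ribosomal protein genes had a peak at 77 of 78, cytosolic ribosomal protein genes at 81 of 86, and proteasome subunit genes at 37 of 39. The exact intervals of these shares, from 82.7 to 99.4% for the proteasome and from 87.0 to 98.1% for the cytosolic ribosome, overlap that of the members. Scores ranked differently from shares. The median was 639 for the mitochondrial ribosome, 495 for the proteasome and 527 for the members, and 1484 for the cytosolic ribosome. No test of these differences was possible with 1 library.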

How the data were processed

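The 2 groups, LSD1 ChIP-seq and input DNA of PC-3M-luc cells, hold 1 library each. Reads were mapped to hg19 with bowtie 2, per the labels' protocols, and MACS 1.41 is named as a tool per the submitters' processing notes. For the caller's settings and threshold, duplicate handling and depth, the sources used here give nothing. The authors' deposited list gives a position and a score per peak. All 24 chromosome names occur in GRCh37 and 0 peaks run past an end, and positions are given 1-based. Genes and TSSs came from GENCODE 44 on GRCh37. For 280 genes without a mapped canonical transcript, 1 of them a member (NDUFB6), the gene's 5′ end was used. Where a window met several peaks, the highest-scoring was described.

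The members and lists were chosen with earlier results of these data known. Named are every member without a peak, the 3 highest and the lowest scores of each class, the isoform pairs and shared peaks. Genes outside this rule were named after their values were seen. The overlap code was tested on planted peaks and found 100% of 2823 genes reached. Alternatives changed the window, TSS, overlap rule, score, width, membership and motif window. Computations ran in Python 3.11.15 with numpy 2.4.6 and pandas 2.3.3, intervals came from scipy 1.17.1, word counts used numba 0.67.0, and figures used matplotlib 3.10.9.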

Additional observations from a re-analysis of the deposited data

How the results depend on the processing

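No paired analysis was possible because LSD1 and input were each sequenced as 1 library. The limit set for a count, 1.5 times the reported one, is wide where nearly every gene has a peak, and staying within it says little there. The count of structural subunits alone, 77 of 77, was compared with that of all members, a larger set. Of 120 alternative values, 116 stayed within that limit or within the interval of the median, and 4 moved. All 4 concern the isoforms and copies, whose 2 peaks became 1 with the TSS base under the peak, 1 with a score of at least 100, 1 without the widest 1% of peaks and 0 with a score at or above the median of the list. The members with a peak ranged from 91 (peak midpoint within 1 kb, 49.6% of all genes) to 101 (window of 5 kb, 58.0% of all genes, with ATP5MGL added), and were 92 at or above the median score, where 43.1% of all genes had one. By midpoint the 9 genes lost were ATP5ME, COX20, COX7C, NDUFA7, NDUFAF3, NDUFAF8, NDUFB1, NDUFB10 and SDHD, all under a peak that covers their TSS. At or above the median score, ATP5F1D, COX7A2L, NDUFA5, NDUFA8, NDUFB3 and SDHB were lost besides both isoforms. In windows of 250 bp the motifs were found at 19 (NRF1), 31 (ETS), 14 (YY1) and 27 (SP) members, or 17.8%, 29.0%, 13.1% and 25.2%, against 4.67%, 16.7%, 3.5% and 39.3% of all promoters. Without replicates or read counts, neither the spread of a score nor the depth needed to call a weak peak is known.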

Other observations

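The enzymes of the tricarboxylic acid cycle and the pyruvate dehydrogenase complex supply electrons to the respiratory chain. All 17 of their genes examined had a promoter peak, where 55.1% of all protein-coding genes had one. Of the 17 promoters 16 were CpG-rich, and 76.9% of all CpG-rich promoters had a peak. MDH2, the mitochondrial malate dehydrogenase, led with a score of 1124.87, followed by IDH3G, a subunit of the NAD-dependent isocitrate dehydrogenase (1063.64), and CS, citrate synthase (931.29). The lowest was SUCLG1, a subunit of succinyl-CoA ligase, at 73.63, with SUCLA2, the ATP-forming partner of that enzyme, at 808.22. IDH2 scored 179.5.

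Several peaks per gene were common among the members. At 45 of 107 members (42.1%) at least 2 peaks overlapped the gene, against 23.7% of all protein-coding genes. No allowance was made for gene length. Nor was any made for the promoter peak, present at 93.5% of members and 55.1% of all genes. No member without a promoter peak was overlapped by any peak, so the 2 shares partly restate that difference. NDUFAF6 was overlapped by 5 peaks, and ATP5F1B, ATP5MC2, NDUFA7 and the readthrough gene ATP5MF-PTCD1 by 4 each.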
